A study of Mus musculus with 8 samples.

Results

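Genes of the integrated stress response, of the endoplasmic reticulum (ER) and of the cytosolic aminoacyl-tRNA synthetases were followed in mouse mesenchymal stromal cells after knockdown of Irf7. The members were a written list of 36 genes, of which 34 had a probe set with their symbol among 19505 genes of the array. For a synthetase, the symbol with 1 added also counted, which applied to Mars (Mars1). Aars and Dars were not analysed here. The cells came from inguinal fat pads of male FVB mice aged 12 months and carried the lentiviral plasmid pLKO.1 in every group. There were 4 shIRF7 arrays (a hairpin against Irf7), 2 scramble arrays (a scrambled hairpin) and 2 empty vector arrays (no hairpin). The labels tie no replicate to a culture, animal or infection of its own, so p-values reflect array-to-array spread that may be technical. Each value is the authors' RMA log2 signal of a probe set, a level within 1 gene that is not comparable between genes, and 4 against 4 arrays limit the precision. In RNA from a whole culture, fewer cells that make a transcript and less transcript per cell cannot be told apart.

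In the integrated stress response, kinases that sense amino acid shortage, unfolded protein in the ER, haem shortage or double-stranded RNA phosphorylate the initiation factor eIF2 alpha, which lowers general translation but favours the translation of Atf4. Atf4 is a transcription factor that switches on amino acid synthesis, amino acid transport, many cytosolic synthetases, and feedback genes such as Trib3 and Chac1. The synthetases join each amino acid to its tRNA and so supply all translation. ER folding genes answer mainly to the related factors Xbp1 and Atf6, and form a separate arm. Because Atf4 is controlled mostly at translation, its transcript level is only part of its activity.

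Promoter sequence was examined for the element through which Atf4 acts, the C/EBP-ATF response element, searched on both strands as TGATGCAA and more loosely as TGATGNAA, which includes TGATGCAA. The windows ran from 250 bases before to 50 after each annotated start (RefSeq, GRCm38.p6), and 27 members had at least 1 window (28 windows). No window was available for the synthetases Cars, Hars, Lars, Nars, Rars, Vars and Wars, so these were not searched. TGATGCAA was present in 6 of these 27 members (Atf3, Chac1, Herpud1, Iars, Tars and Yars) and in 0.895% of all 32851 windows. TGATGNAA was present in 9 members, adding Trib3, Asns and Gars, and in 3.97% of all windows. The ER stress element, CCAAT and CCACG separated by 9 bases, was found in Hspa5 and in 0.119% of all windows. These matches are descriptions of letters, not of bound sites. The stretches below surround the match, which is in capitals, and read 5′ to 3′ along the gene. They are shown because they place the element in each role of the list, and Gars, Trib3 and Asns were added after their values were seen. Matches start at position -193 (Chac1), -110 (Atf3), -112 (Herpud1), -30 (Gars), -23 (Asns), -15 (Tars), 4 (Yars), 8 (Iars), 15 (Trib3) and -65 (Hspa5) from the annotated start.
Atf3, chr1:191183396-191183483, minus strand: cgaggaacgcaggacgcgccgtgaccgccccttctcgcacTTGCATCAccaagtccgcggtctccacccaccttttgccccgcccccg
Chac1, chr2:119351009-119351096, plus strand: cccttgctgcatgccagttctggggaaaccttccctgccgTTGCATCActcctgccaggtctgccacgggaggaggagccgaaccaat
Trib3, chr2:152344011-152344086, minus strand: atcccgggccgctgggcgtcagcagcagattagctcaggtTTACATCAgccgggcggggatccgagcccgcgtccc
Asns, chr6:7693185-7693272, minus strand: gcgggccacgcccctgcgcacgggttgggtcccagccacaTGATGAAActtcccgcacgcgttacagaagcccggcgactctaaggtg
Herpud1, chr8:94386277-94386364, plus strand: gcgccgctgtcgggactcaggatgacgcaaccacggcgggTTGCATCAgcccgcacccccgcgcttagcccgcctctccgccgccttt
Hspa5, chr2:34771985-34772083, plus strand: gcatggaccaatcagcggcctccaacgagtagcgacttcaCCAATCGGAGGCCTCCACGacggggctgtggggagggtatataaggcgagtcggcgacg
Gars, chr6:55037931-55038018, plus strand: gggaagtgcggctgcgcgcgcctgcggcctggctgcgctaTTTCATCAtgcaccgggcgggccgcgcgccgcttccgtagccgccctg
Iars, chr13:49682097-49682179, plus strand: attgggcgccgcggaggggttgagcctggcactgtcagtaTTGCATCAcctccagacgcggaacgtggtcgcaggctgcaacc
Tars, chr15:11399626-11399713, minus strand: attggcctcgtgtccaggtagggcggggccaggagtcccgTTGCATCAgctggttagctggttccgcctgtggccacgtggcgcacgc
Yars, chr4:129189866-129189952, plus strand: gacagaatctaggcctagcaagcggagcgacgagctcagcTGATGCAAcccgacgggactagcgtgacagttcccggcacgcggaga

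The targeted gene, Irf7, measured 4.42, 5.66, 6.47 and 6.79 in shIRF7, against 9.56 and 9.76 in scramble and 9.55 and 9.61 in empty vector. The groups did not overlap. On 0 of the 4 shIRF7 arrays, but on all 4 control arrays, it was brighter than the level that 95% of negative controls stay under. Irf7 was therefore at least 2.34-fold lower in shIRF7, taking that level for each shIRF7 array. The measured log2 difference of -3.79 (SE 0.48, limma adjusted p = 0.0692) rests on shIRF7 signals under that level. Median signals of the negative control probe sets were 4.18 to 4.26 on the 3 arrays numbered replicate 1, 4.55 to 4.56 on those numbered replicate 2, 4.54 on shIRF7 replicate 3 and 4.33 on shIRF7 replicate 4. Of the stromal markers, 6 of 9 measured were brighter than the same level on all arrays. Their mean log2 level was 12.07 to 12.92 in shIRF7, 12.50 to 12.77 in scramble, and 14.03 and 12.88 in empty vector replicates 1 and 2. Single stromal markers differed in both directions between shIRF7 and the mean of both controls, by -2.15 to 1.22 (median -0.42, 6 of 9 below 0). None passed limma after adjustment. At an unadjusted limma p under 0.05, 4 were lower, against 4.1% of all genes. All shIRF7 arrays lay under every control array for 2 of them, against 2.8% of all genes. Markers of macrophages (0 of 7), endothelial cells (0 of 5) and lymphocytes (0 of 4) did not reach the negative control level on any array, and those of adipocytes (1 of 5) and mural cells (1 of 4) mostly did not. Among the stress and synthetase genes 29 of 34 passed it on all 8 arrays. The exceptions were Trib3 and Vars (7 arrays each), Atf3 and Chac1 (1 array each) and Sesn2 (0 arrays). The differences of Atf3, Chac1 and Sesn2 are therefore measured mostly among signals under the negative control level, though above the negative control medians.

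**Figure D1:**
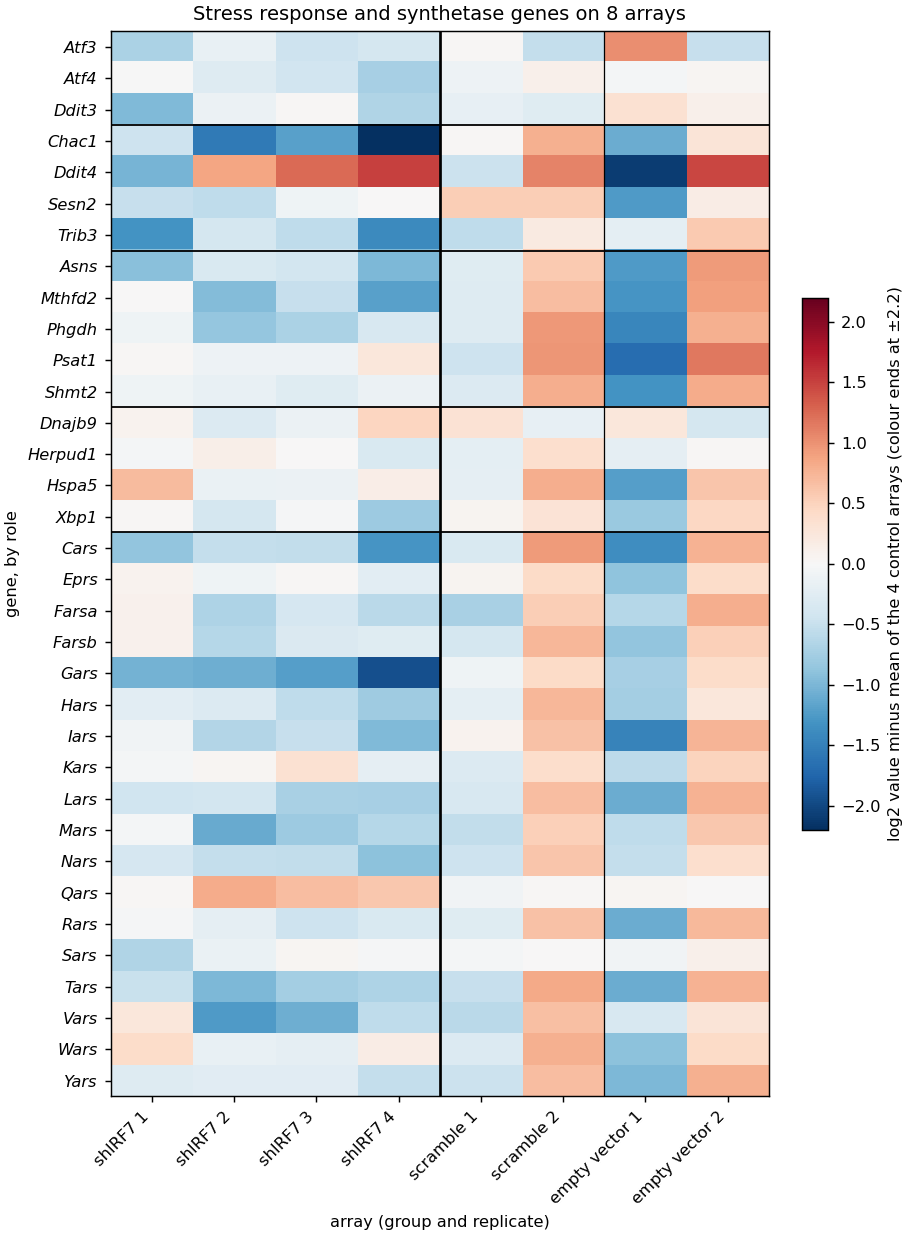
Each row is a gene and each column an array. Colour gives the log2 value minus the mean of the 4 control arrays, from blue (lower) to red (higher). Scramble replicate 2 and empty vector replicate 2 are red in most rows and empty vector replicate 1 is blue. The 4 shIRF7 arrays lie mostly between them, with Gars blue and Qars white to red.

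Irf7 knockdown was set against both controls to ask which of these genes depend on it. None of the 34 genes passed the limma threshold of an adjusted p under 0.05 in shIRF7 against the mean of both controls (lowest adjusted p = 0.299), where 0.0308% of all genes did, all of them lower. At an unadjusted p under 0.05 limma gave 3 lower genes (Gars, Chac1 and Trib3), against 4.1% of all genes, and 1 higher gene (Qars), against 4.01% (8.12% in either direction). The log2 difference was below 0 in 27 of 34 genes, against 49.7% of all genes, and its median was -0.37, against 0.0017 over all genes. Gars was the 1 member whose shIRF7 arrays were all under every control array, against 2.8% of all genes. No member lay wholly above the controls, against 2.58% of all genes.

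**Figure D2:**
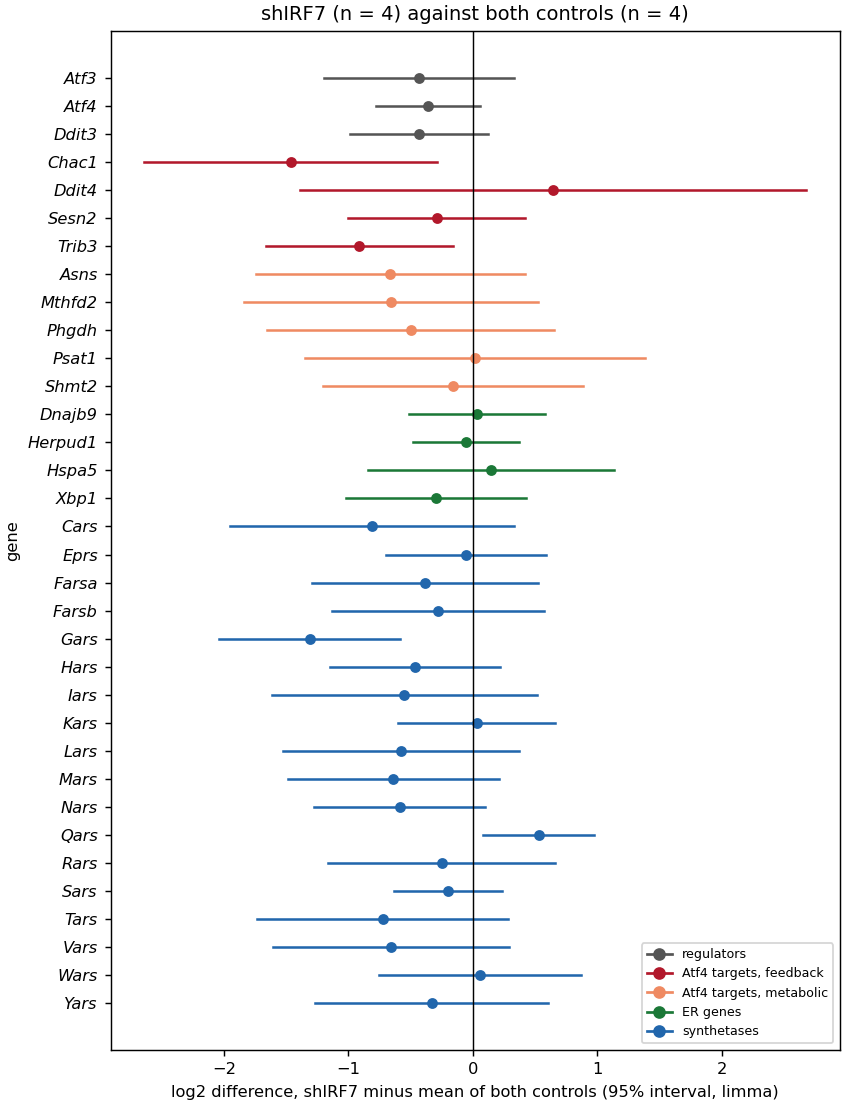
Points give the log2 difference of each gene, shIRF7 minus the mean of both controls, and lines its 95% interval from limma. The intervals of Gars, Chac1 and Trib3 lie below 0 and that of Qars above 0, before adjustment over all genes. All others cross 0.

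None of the 3 regulators passed the test, and each had a log2 difference below 0. Atf4 itself measured 14.85, 14.58, 14.44 and 14.14 in shIRF7, against 14.75 and 14.97 in scramble and 14.82 and 14.90 in empty vector. The groups overlapped only through shIRF7 replicate 1. Its log2 difference was -0.36 (SE 0.18, 95% interval -0.78 to 0.055, limma adjusted p = 0.681). Ddit3 encodes CHOP, the Atf4-induced factor of prolonged stress, and measured 10.52, 11.35, 11.51 and 10.82 in shIRF7, against 11.30 and 11.21 in scramble and 11.82 and 11.60 in empty vector. Values of shIRF7 reached into those of scramble but not of empty vector. The difference was -0.43 (SE 0.24, limma adjusted p = 0.719), and a second, dimmer probe set of Ddit3 differed by -0.50. Atf3, a stress-induced factor of the same family, measured 7.20 to 7.73 in shIRF7, 7.92 and 7.37 in scramble, and 8.91 and 7.39 in empty vector. Empty vector replicate 1 was the high array for Atf3, and the difference was -0.43 (SE 0.33, limma adjusted p = 0.824).

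None of the 4 feedback genes downstream of Atf4 passed after adjustment, and Trib3 and Chac1 had the largest differences relative to their error. Trib3, a pseudokinase that restrains Atf4 and CHOP, measured 8.10, 9.03, 8.86 and 8.01 in shIRF7, against 8.86 and 9.62 in scramble and 9.20 and 9.99 in empty vector. Of the controls, scramble replicate 1 was the only array inside the shIRF7 range. The difference was -0.91 (SE 0.32, 95% interval -1.66 to -0.16, 1.88-fold, limma adjusted p = 0.537). Chac1, which degrades glutathione, measured 7.60, 6.51, 6.88 and 5.40 in shIRF7, against 8.08 and 8.84 in scramble and 6.98 and 8.35 in empty vector. Here shIRF7 replicate 1 lay above empty vector replicate 1. The difference was -1.46 (SE 0.51, 95% interval -2.64 to -0.28, limma adjusted p = 0.525), at dim signals.

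Ddit4, which encodes REDD1, an inhibitor of the growth kinase complex mTORC1, varied most. It measured 9.61, 11.50, 11.88 and 12.15 in shIRF7, against 10.17 and 11.74 in scramble and 8.55 and 12.11 in empty vector. All 3 arrays numbered replicate 1 were low, whatever the hairpin. The interval of its difference ran from -1.39 to 2.68 around 0.65 (SE 0.87, limma adjusted p = 0.917). Sesn2, a leucine sensor upstream of mTORC1, measured 6.18 to 6.74 in shIRF7, 7.27 and 7.28 in scramble, and 5.49 and 6.89 in empty vector (difference -0.29, SE 0.31, limma adjusted p = 0.884).

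The metabolic targets of Atf4 shared a pattern in which the controls spread widely and the shIRF7 arrays sat between them. Asns, asparagine synthetase, measured 14.36, 14.96, 14.88 and 14.30 in shIRF7, against 15.01 and 15.87 in scramble and 14.03 and 16.23 in empty vector. Empty vector replicate 1 was the lowest array and the other controls the highest, and the difference was -0.66 (SE 0.47, 95% interval -1.74 to 0.42, limma adjusted p = 0.802). Phgdh and Psat1 carry out consecutive steps of serine synthesis. Phgdh measured 12.36, 11.60, 11.76 and 12.10 in shIRF7, against 12.16 and 13.41 in scramble and 11.02 and 13.23 in empty vector. Psat1 measured 14.22, 14.09, 14.09 and 14.45 in shIRF7, against 13.74 and 15.17 in scramble and 12.52 and 15.36 in empty vector. Their differences were -0.50 (SE 0.50, limma adjusted p = 0.873) and 0.015 (SE 0.59, limma adjusted p = 0.998).

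The mitochondrial folate enzymes Shmt2 and Mthfd2, which pass carbon from serine to formate, followed the same order of control arrays. Mthfd2 measured 12.15, 11.17, 11.63 and 10.93 in shIRF7, against 11.85 and 12.82 in scramble and 10.83 and 13.03 in empty vector (difference -0.66, SE 0.51, limma adjusted p = 0.826). Shmt2 measured 12.21 to 12.37 in shIRF7, 12.17 and 13.27 in scramble, and 11.15 and 13.29 in empty vector (difference -0.16, SE 0.45, limma adjusted p = 0.969). In all 5 metabolic targets empty vector replicate 1 was the lowest of the 8 arrays, as in 18.3% of all genes. Also in all 5, every shIRF7 value lay below both replicate 2 controls, as in 15.7% of all genes.

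The 4 ER genes had a median difference of -0.013, and 0 passed. Hspa5, the chaperone BiP whose promoter carries the ER stress element shown above, measured 17.93, 17.09, 17.11 and 17.38 in shIRF7, against 17.05 and 18.03 in scramble and 16.03 and 17.84 in empty vector. The shIRF7 arrays lay inside the control range, and the difference was 0.14 (SE 0.43, 95% interval -0.85 to 1.13, limma adjusted p = 0.971). Xbp1, the transcription factor of the ER arm, measured 13.22 to 14.04 in shIRF7, 14.07 and 14.31 in scramble, and 13.20 and 14.48 in empty vector (difference -0.30, SE 0.31, limma adjusted p = 0.883). Dnajb9, a co-chaperone of BiP, differed by 0.031 (SE 0.23, 95% interval -0.51 to 0.58). Herpud1, which serves degradation of misfolded ER proteins, differed by -0.057 (SE 0.18, 95% interval -0.48 to 0.37), one of the narrowest intervals in the list.

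Of the 18 synthetases measured, 15 had a log2 difference below 0, against 49.7% of all genes, and the median was -0.42. None passed the limma threshold. At an unadjusted limma p under 0.05 there were 1 lower and 1 higher, close to the shares among all genes (4.1% and 4.01%). Gars, glycyl-tRNA synthetase, had the smallest p of the list. It measured 13.80, 13.76, 13.62 and 12.90 in shIRF7, against 14.74 and 15.25 in scramble and 14.10 and 15.24 in empty vector. The groups did not overlap, and the gap between shIRF7 replicate 1 and empty vector replicate 1 was the narrowest. The means were 13.52 ± 0.42 in shIRF7 and 14.83 ± 0.54 in the controls (SD, n = 4 each), a difference of -1.31 (SE 0.31, 95% interval -2.04 to -0.58) or 2.48-fold, with a limma adjusted p = 0.299. It held rank 218 by p among the 19505 genes. Within replicates 1 and 2 Gars differed by -0.62 and -1.48.

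Qars, glutaminyl-tRNA synthetase, went the other way from most synthetases. It measured 13.21, 14.00, 13.85 and 13.77 in shIRF7, against 13.11 and 13.20 in scramble and 13.21 and 13.19 in empty vector. The 4 controls were nearly equal, shIRF7 replicate 1 matched them, and the other shIRF7 arrays lay above. The difference was 0.53 (SE 0.19, 95% interval 0.085 to 0.97, limma adjusted p = 0.545), which was 0.050 in arrays numbered 1 and 0.81 in those numbered 2.

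Sars, seryl-tRNA synthetase, was also steady among controls at 13.63 and 13.69 in scramble and 13.59 and 13.80 in empty vector, with 13.01, 13.52, 13.72 and 13.66 in shIRF7. In shIRF7, replicates 1 and 2 lay below the controls, and the difference was -0.20 (SE 0.19, limma adjusted p = 0.863). Wars, tryptophanyl-tRNA synthetase, is known in other settings as an interferon-induced synthetase. It measured 12.08, 11.52, 11.49 and 11.84 in shIRF7, against 11.38 and 12.46 in scramble and 10.79 and 12.09 in empty vector. These ranges overlapped, with a difference of 0.055 (SE 0.35, 95% interval -0.76 to 0.86, limma adjusted p = 0.986).

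In every synthetase except Qars, replicate 2 exceeded replicate 1 in both scramble and empty vector, as in all 9 Atf4 targets. Cars, for cysteine, measured 10.21, 10.55, 10.52 and 9.77 in shIRF7, against 10.73 and 12.01 in scramble and 9.71 and 11.84 in empty vector (difference -0.81, SE 0.49, limma adjusted p = 0.752). Tars, for threonine, whose promoter holds the Atf4 element shown above, measured 13.72, 13.23, 13.47 and 13.53 in shIRF7, against 13.71 and 15.04 in scramble and 13.13 and 14.97 in empty vector (difference -0.72, SE 0.43, limma adjusted p = 0.751). In both, shIRF7 lay far below the replicate 2 controls and around the replicate 1 controls. Nars, for asparagine, measured 12.50 to 13.04 in shIRF7, 12.95 and 14.03 in scramble, and 12.89 and 13.78 in empty vector (difference -0.59, SE 0.30, limma adjusted p = 0.685).

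Vars (-0.66), Mars (-0.64), Lars (-0.57), Iars (-0.55), Hars (-0.46), Farsa (-0.38), Yars (-0.33), Farsb (-0.28) and Rars (-0.25) also had log2 differences below 0. These genes serve valine, methionine, leucine, isoleucine, histidine, phenylalanine (the alpha and beta subunits Farsa and Farsb), tyrosine and arginine. Their limma adjusted p-values ran from 0.740 (Mars) to 0.932 (Rars). Eprs, the fused enzyme for glutamate and proline, differed by -0.055 (SE 0.28) and Kars, for lysine, by 0.031 (SE 0.27). For Eprs the 95% interval was -0.70 to 0.58 and for Kars -0.60 to 0.66, so neither interval excludes a difference of the median size.

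Synthetases reported in mammalian cells as Atf4 targets had a median difference of -0.58 (12 measured, 11 below 0), and the other synthetases one of -0.27 (6 measured, 4 below 0). Enzymes that sit in the multi-synthetase complex had a median of -0.25 (7 measured), and those outside it one of -0.46 (11 measured). By catalytic fold, class I enzymes had a median of -0.55 (9 measured) and class II enzymes of -0.42 (8 measured), with the fused Eprs left out. These medians are descriptions, and differences between them were not tested. Over all genes the median was 0.0017, and 49.7% lay below 0.

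The Atf4 targets and the synthetases were then set side by side on each array, with the ER genes and the regulators. The mean log2 deviation of the 9 Atf4 targets from the control mean was -0.49, -0.45, -0.29 and -0.55 in shIRF7, against -0.23 and 0.73 in scramble and -1.29 and 0.79 in empty vector. For the 18 synthetases it was -0.20, -0.45, -0.40 and -0.55 in shIRF7, against -0.31 and 0.57 in scramble and -0.77 and 0.51 in empty vector. For the 4 ER genes it was 0.19, -0.17, -0.069 and -0.13 in shIRF7, against -0.0076 and 0.32 in scramble and -0.49 and 0.18 in empty vector. In these sets the replicate 2 controls were high, empty vector replicate 1 was lowest, and all shIRF7 arrays lay inside the control range. The 3 regulators ran differently, with -0.56, -0.19, -0.28 and -0.59 in shIRF7, against -0.091 and -0.23 in scramble and 0.44 and -0.12 in empty vector. The median difference was -0.50 for the Atf4 targets, -0.42 for the synthetases, -0.013 for the ER genes and -0.43 for the regulators.

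**Figure D3:**
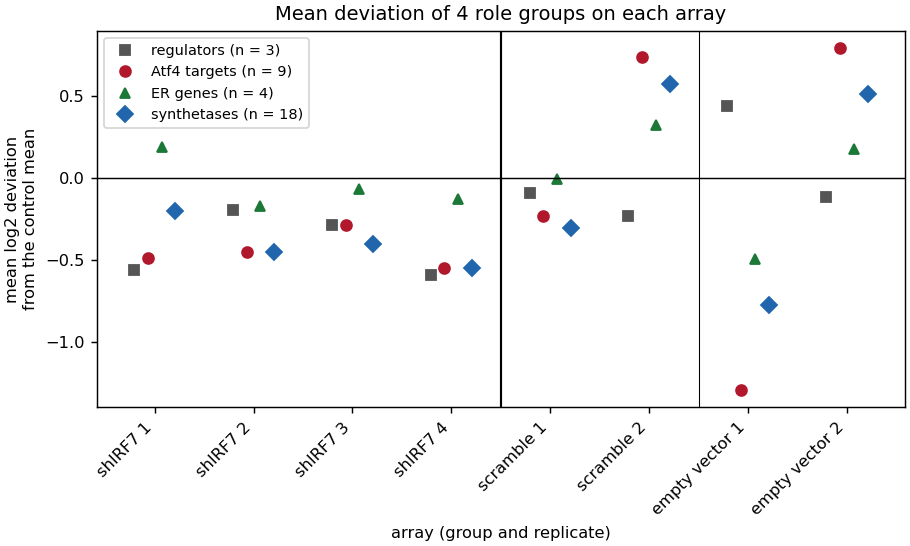
Each symbol is the mean over the genes of a role of the log2 deviation from the control mean, on each of the 8 arrays. Atf4 targets run from -1.29 in empty vector replicate 1 to 0.79 in empty vector replicate 2, and lie between -0.55 and -0.29 in the shIRF7 arrays.

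The controls spread more widely than the shIRF7 arrays. The SD of the 4 control arrays exceeded that of the 4 shIRF7 arrays in 27 of 34 genes, against 58.6% of all genes. Its median was 0.32 in shIRF7 and 0.75 in the controls, compared with 0.25 and 0.28 over all genes. The all-gene values here are not matched for brightness. Only 5579 of 19505 genes were brighter than the negative control level on all 8 arrays, against 29 of 34 members. In 30 of 34 genes replicate 2 exceeded replicate 1 in both scramble and empty vector, against 31.9% of all genes. The median excess was 0.93 in scramble and 1.34 in empty vector. In shIRF7 only 12 of 34 genes had replicate 2 above replicate 1, against 50.5% of all genes, with a median excess of -0.14. Mean stromal marker level also differed between the control arrays, by the values given above, and its part in these differences was not tested.

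Among arrays numbered replicate 1 the shIRF7 array stood above the mean of the controls in 25 of 34 genes (median 0.29), against 9357 of all 19505 genes. Among those numbered replicate 2 it stood below that mean in 32 of 34 (median -0.94), against 9474 of all genes. No label says what the number marks, and it was not taken as a pairing of shIRF7 with controls. These differences also contain the excess of replicate 2 over replicate 1 in the controls, given above. In 24 genes the sign was positive within replicate 1 and negative within replicate 2, against 28.6% of all genes. Medians within replicates 1 and 2 were 0.25 and -1.10 for the Atf4 targets, 0.42 and -1.07 for the synthetases, 0.28 and -0.41 for the ER genes, and -1.04 and -0.057 for the regulators. Hspa5 differed by 1.39 and -0.85, Psat1 by 1.09 and -1.17, and Mthfd2 by 0.81 and -1.75. The sign was negative within both numbers in 8 of 34 genes (Ddit3, Trib3, Sesn2, Asns, Dnajb9, Cars, Gars and Sars). That is close to the share among all genes (20%), so it does not set the members apart. Among them Trib3 had -0.92 and -0.77.

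**Figure D4:**
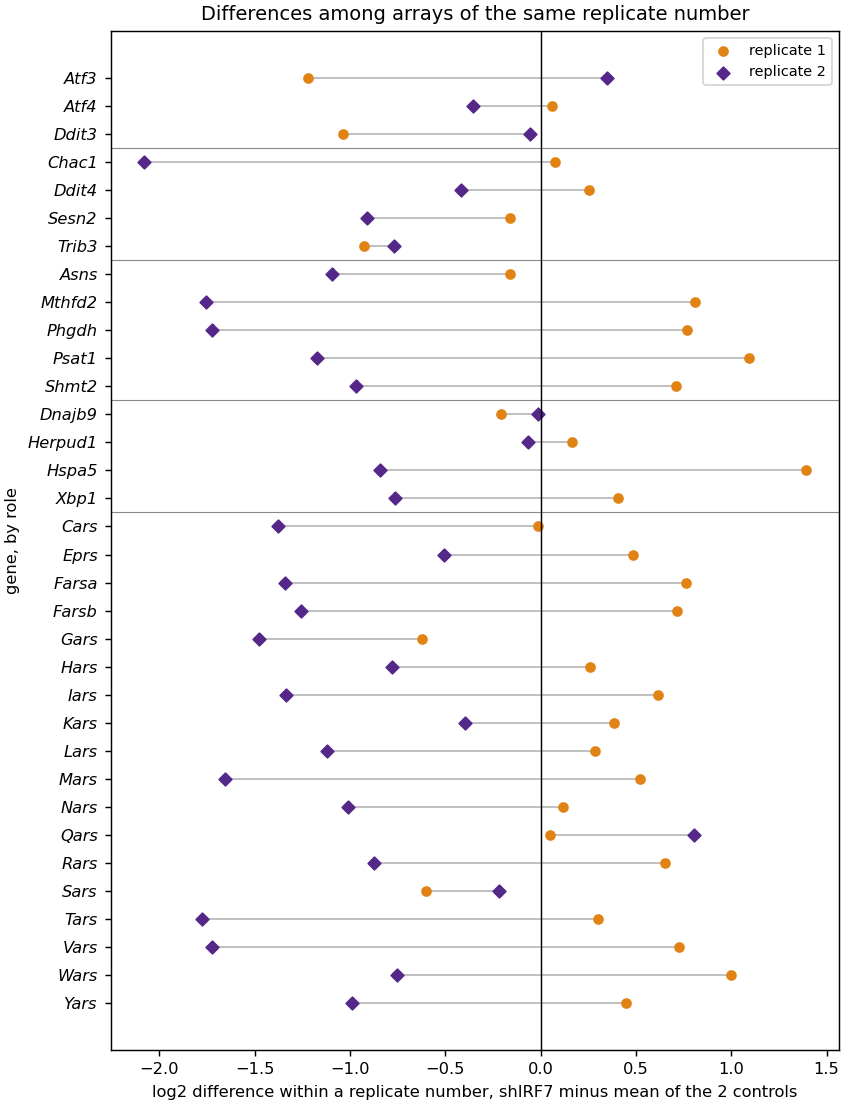
For each gene, the circle is the log2 difference within replicate 1 and the diamond that within replicate 2. Each is shIRF7 minus the mean of the scramble and empty vector arrays of that number, which is not taken as a pairing. In 24 of 34 genes the circle lies above 0 and the diamond below 0. Both symbols lie below 0 in 8 genes, Trib3 and Gars among them, which is close to the share among all genes (20%). Qars has both above 0.

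The medians of the Atf4 targets and the synthetases depended on which control array was left out. Without empty vector replicate 1 the median difference was -1.05 for the Atf4 targets and -0.76 for the synthetases, 32 of 34 genes lay below 0, and 19 of 34 had an unadjusted limma p under 0.05, against 10.9% of all genes. Still 0 of 34 passed after adjustment (lowest limma adjusted p = 0.178). Without empty vector replicate 2 the same medians were 0.054 and -0.069, and 2 of 34 had an unadjusted p under 0.05, against 11% of all genes. Without scramble replicate 1 the medians were -0.81 and -0.70, and without scramble replicate 2 they were -0.29 and -0.21. The genes at an unadjusted p under 0.05 then numbered 7 (all genes 7.55%) and 2 (6.5%). Without shIRF7 replicates 1, 2, 3 and 4 in turn they numbered 5 (11.6%), 3 (5.2%), 4 (5.47%) and 2 (5.46%). Gars stayed between -1.59 and -1.03 whichever array was left out, with limma adjusted p-values of 0.178 to 0.681.

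Against scramble alone, the hairpin-matched control, 32 of 34 genes lay below 0 with a median of -0.45, and against empty vector 23 of 34 with a median of -0.21. Over all 19505 genes, 9590 lay below 0 against scramble and 9643 against empty vector. Both comparisons use the same 4 shIRF7 arrays. Gars differed by -1.47 against scramble and -1.15 against empty vector, Chac1 by -1.86 and -1.07, Trib3 by -0.73 and -1.09, Asns by -0.82 and -0.51, and Qars by 0.55 and 0.51. None of the 34 genes passed limma in either (lowest adjusted p = 0.540 and 0.725), where 0.00513% and 0% of all genes passed. At an unadjusted p under 0.05 there were 3 and 2 genes, against 6.14% and 5.84% of all genes. Scramble against empty vector also gave 0 of 34 genes (0% of all genes), with 1 at an unadjusted p under 0.05, against 1.93%. Its median over the 34 genes was 0.32, with 27 above 0, against 9661 of all 19505 genes.

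Other genes of the pathway, from lists written beside the members, also held no gene that passed. Among kinases, phosphatases and sensors 0 of 8 measured genes passed, with a median of -0.28. Eif2ak2 encodes PKR, the eIF2 alpha kinase of double-stranded RNA that interferon induces. It measured 9.99, 10.51, 10.51 and 10.76 in shIRF7, against 11.59 and 12.85 in scramble and 10.85 and 12.36 in empty vector. The groups did not overlap, with a difference of -1.47 (SE 0.40, 2.77-fold, limma adjusted p = 0.368). It was -1.23 in arrays numbered 1 and -2.10 in those numbered 2. The other eIF2 alpha kinases differed by 0.25 (Eif2ak1), 0.25 (Eif2ak3, PERK) and -0.30 (Eif2ak4, GCN2). Ppp1r15b, a subunit of the phosphatase that reverses eIF2 alpha phosphorylation, differed by -0.69 (SE 0.23, limma adjusted p = 0.489), with 0.021 in arrays numbered 1 and -1.08 in those numbered 2. It was brighter than the negative control level above on 3 arrays only, those numbered replicate 1. Its difference therefore rests mostly on signals under that level.

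Other genes of the Atf4 programme had a median of -0.44 over 21 measured, with 19 below 0 (49.7% of all genes) and 0 called. Slc7a1, a transporter of cationic amino acids, measured 10.11, 8.80, 8.46 and 7.75 in shIRF7, against 10.41 and 11.48 in scramble and 8.59 and 11.43 in empty vector (difference -1.70, SE 0.71, limma adjusted p = 0.605). On shIRF7 replicates 3 and 4 it lay under the negative control level, so its difference rests partly on dim signals. Slc7a11, the cystine importer, differed by -1.08 (SE 0.43, limma adjusted p = 0.587) and did not reach the negative control level above on any array.

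Other ER folding genes had a median of 0.059 over 21 measured, with 7 below 0 (49.7% of all genes) and 0 called. The largest differences were those of Pdia6 and Ero1a. Ero1a, the oxidase that drives disulfide formation, measured 9.91, 10.41, 10.62 and 10.54 in shIRF7, against 11.41 and 11.63 in scramble and 11.48 and 11.86 in empty vector. The groups did not overlap, the controls were close together, and the difference was -1.22 (SE 0.20, 95% interval -1.68 to -0.76, 2.33-fold, limma adjusted p = 0.138). By number, it was -1.53 and -1.33 for replicates 1 and 2. Pdia6, a disulfide isomerase, measured 14.24, 13.36, 13.64 and 12.73 in shIRF7, against 14.79 and 15.49 in scramble and 14.08 and 15.46 in empty vector. Only shIRF7 replicate 1 reached into the controls, and the difference was -1.47 (SE 0.41, limma adjusted p = 0.384).

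Mitochondrial synthetases, encoded by separate genes from the cytosolic enzymes, had a median of 0.028 over 16 measured, with 5 below 0 (49.7% of all genes) and 0 called. Of the 16, 5 reached the negative control level above on at least 1 array. Rars2 did not reach it on any array, and its measured difference of 0.71 (SE 0.37, limma adjusted p = 0.699) lies among signals under that level. Yars2, above it on 3 arrays, differed by -0.53 (SE 0.40, limma adjusted p = 0.822). The scaffold genes of the multi-synthetase complex, Aimp1, Aimp2 and Eef1e1, differed by 0.029, -0.69 and -0.21, with 0 of 3 called. Aimp2 measured 11.97, 10.36, 10.53 and 11.25 in shIRF7, against 11.17 and 12.47 in scramble and 10.82 and 12.43 in empty vector, again with both replicate 2 controls highest.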

How the data were processed

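RMA log2 values were deposited for each array; per the submitters' processing notes the authors ran Affymetrix Expression Console (version 1.4.1.46), and that the scale is log2 follows from the range of the values. All array columns were used (0 left out). Of 28846 probe sets, 19572 had 1 symbol, 0 several and 9274 none. All 19572 matched a RefSeq gene (GRCm38.p6, used for symbols). The build behind the array design is not given in the sources used. Genes with several probe sets (55) were represented by the brightest. Group means were fitted over all 8 arrays with limma 3.58.1 in R 4.3.3 (lmFit, eBayes; 5 residual and 2.68 prior degrees of freedom) and Benjamini-Hochberg adjustment over 19505 genes at 0.05. The fit was tested on simulated data. The members, roles and lists were chosen with earlier results of these data known. All members are named, with Irf7 and, per other list, called genes or else the 2 largest differences. The other eIF2 alpha kinases, Aimp1 and the promoters of Gars, Trib3 and Asns were named after their values were seen. Alternatives were leaving out each array, the replicate block, pooled controls, cyclic loess, the mean of probe sets, trend with robust eBayes, and testing bright genes only.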

Additional observations from a re-analysis of the deposited data

Results flagged for a closer look

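Among the 4 shIRF7 arrays, Yars stood out because 1 array lay far from the rest. It measured 12.68, 12.71 and 12.71 in replicates 1 to 3 and 12.44 in replicate 4, so that the gap to the nearest array made up 0.876 of the range, above Dixon's 95% critical value for 4 samples. The range itself was small. Of 49 sets of 4 shIRF7 values examined this was the only one, and chance flags about 1 in 20 groups. Scramble and empty vector have 2 arrays each and were not examined.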

How the results depend on the processing

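No alternative gave a call among the 34 stress and synthetase genes in any comparison (0 throughout). With arrays left out, the role medians ran from -1.05 to 0.054 for the Atf4 targets and from -0.76 to -0.069 for the synthetases. They ran from -0.21 to 0.011 for the ER genes and from -0.52 to -0.34 for the regulators. Without empty vector replicate 2 those of the Atf4 targets (0.054) and ER genes (0.011) turned above 0. That of the ER genes also did so without shIRF7 replicate 2 (0.0089) or 3 (0.0018). Over all genes, shIRF7 against both controls gave 6 calls, 3 with the filter on dim genes, 3 with trend and robust fitting, 28 with pooled controls, and 0 to 28 with arrays left out (28 without shIRF7 replicate 1, 0 without either scramble array or shIRF7 replicate 2 or 3). Against scramble the count was 1, with 0 under the filter on dim genes, 0 under trend and robust fitting, and 0 to 8 with arrays left out. Against empty vector it was 0, and 0 to 3 with arrays left out. The cause was not tested. Same-numbered shIRF7 and control arrays did not deviate together (correlations of deviations -0.31 to -0.16), while same-numbered scramble and empty vector arrays did (0.757). With 2 arrays per control group, both numbers give that same value by construction, so it counts as 1 observation. Since not every pair was positive and no label says what the number marks, it was not taken as a pairing of shIRF7 with controls. A fit with the replicate number as a block was also run. Replicates 3 and 4 exist only in shIRF7, so its differences rest on the arrays numbered 1 and 2 alone. In that fit limma called 0 genes against both controls and 0 against scramble (691 at an unadjusted p under 0.05 against both). Gars differed by -1.05, and the sign turned for Ddit4 (-0.083), Psat1 (-0.040), Dnajb9 (-0.11), Herpud1 (0.048), Kars (-0.0064) and Eef1e1 (0.055). Cyclic loess turned Psat1 (-0.018). Leaving out arrays turned the sign of 17 genes. Their ranges were -0.24 to 1.54 for Ddit4, -0.64 to 0.063 for Sesn2, -0.69 to 0.72 for Psat1, -1.05 to 0.054 for Phgdh, -0.70 to 0.37 for Shmt2, -0.61 to 0.023 for Xbp1, -0.31 to 0.59 for Hspa5, -0.13 to 0.19 for Dnajb9 and -0.20 to 0.089 for Herpud1. Among synthetases they were -0.38 to 0.27 for Eprs, -0.63 to 0.068 for Farsb, -1.10 to 0.0035 for Iars, -0.23 to 0.30 for Kars, -0.70 to 0.20 for Rars, -0.27 to 0.38 for Wars and -0.77 to 0.11 for Yars, and -0.60 to 0.17 for Eef1e1. Irf7 passed limma with pooled controls (-3.79, adjusted p = 0.0299) or without shIRF7 replicate 1 (-3.31, adjusted p = 0.0254). Signal under or near the negative control level limits Chac1, Atf3, Sesn2, Ppp1r15b, Rars2, Yars2 and Slc7a11, and limits Slc7a1 and Irf7 in shIRF7.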
